A study of Mus musculus with 55 samples.

Results

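The genes described here encode parts and regulators of the anaphase-promoting complex or cyclosome (APC/C): the 8 subunits Anapc1, Anapc2, Anapc4, Anapc5, Anapc7, Cdc16, Cdc23 and Cdc27, the coactivator Fzr1 and the inhibitor Fbxo5. These 10 genes were taken by symbol, and all 10 are listed both among the 9911 genes measured in CCNA-GFP cells and among the 10237 genes measured in CTCF-AID cells. Both lines are E14Tg2a mouse embryonic stem (ES) cells, kept in serum and LIF. CCNA-GFP cells carry a cyclin A reporter of the cell cycle. In CTCF-AID cells the architectural protein CTCF is fused to a degron, so that auxin (IAA, 0.5 mM) removes the protein. Each genotype is represented by a single line. Cells were held by the CDK1 inhibitor RO-3306 (10 µM) for 4 h and then, for a further 4 h, by nocodazole (50 ng/ml). Mitotic cells were shaken off and released. All mitotic and released cells, the −IAA controls included, went through both drugs, whereas asynchronous cells did not. For the +IAA arm, auxin was present over the last 2 h of nocodazole and throughout the release, while its asynchronous cells, which saw neither, had auxin for 4 h. The CCNA-GFP series has 19 libraries (3 asynchronous, 3 mitotic, 2 at each of 20, 30, 40, 60, 90 and 120 min and 1 at 50 min), and each CTCF-AID arm has 18 (3 asynchronous, 3 mitotic and 2 at each of 20, 40, 50, 60, 90 and 120 min).

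The APC/C is a ubiquitin ligase that marks securin and the mitotic cyclins for destruction, which lets chromosomes separate and cells leave mitosis. Its catalytic core is built on the cullin-like subunit Anapc2 and its scaffold on Anapc1, Anapc4 and Anapc5, while Cdc16, Cdc23, Cdc27 and Anapc7 form the tetratricopeptide repeat arch that receives coactivators. Fzr1, also called Cdh1, is the coactivator that keeps the complex active from late mitosis through G1, and Fbxo5, also called Emi1, inhibits the complex so that cyclins can accumulate before the next division. Pre-mRNA still holds introns and is short-lived, so its level follows recent transcription of these genes and not the amount of their proteins.

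The level of each gene is given as the TPM of its pre-mRNA, a share of all transcripts after division by length, that is a measure per length of gene that can be compared between genes. Listed TPM summed to 13747–42576 per library in CCNA-GFP and 17702–43370 in CTCF-AID cells, and read depth is unknown. Of 12 genes that define ES cells 11 were listed, all but Sox2, with a summed level of 40.1–58.6 TPM in mitotic and 112–146 TPM in 60 min libraries of CCNA-GFP. Of 13 markers of differentiated cells or feeders, 4 were listed in CCNA-GFP, with a summed level of 3.75–7.42 and 9.33–16.8 TPM at these stages. In CTCF-AID 7 were listed, with 3.57–4.56 and 13.8–20.3 TPM without IAA, and Gata6, Gata4, Sox17, Foxa2, Sox1 and Col1a2 were not listed in either line. In bulk RNA a change in the share of cells at a stage and a change in the level per cell cannot be told apart.

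Most pre-mRNAs were higher after release than in mitosis, and the median gene set the scale against which the APC/C genes were read. In CCNA-GFP the median log2 fold change over all genes, on the log2(TPM + 1) scale, rose from 0.26 at 40 min to 0.79 at 60 min, and by 120 min was 0.68. When every library was scaled to the same total these medians were −0.05, 0.02 and 0.03. Values below are therefore given as fitted and, where the direction depends on it, relative to the median of all genes in the same comparison.

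Fbxo5, the inhibitor of the complex, had the largest rise of the 10 genes at 40, 50 and 60 min in each of the 3 series (CCNA-GFP, CTCF-AID −IAA and CTCF-AID +IAA). The gene lies at chr10:5799160-5805600 on the − strand (Gencode vM21, GRCm38). In CCNA-GFP its level was 3.10, 3.16 and 3.40 TPM in the mitotic libraries, 10.7 and 9.14 TPM at 40 min, 16.0 TPM in the single library at 50 min and 15.2 and 13.7 TPM at 60 min. Without IAA, CTCF-AID cells had 6.003, 4.17 and 4.84 TPM in mitosis, 19.9 and 12.8 TPM at 40 min and 22.6 and 21.1 TPM at 50 min. Every library from 40 to 60 min lay above every mitotic library of its series. The log2 fold change at 40 min was 1.40 ± 0.13 (SE) in CCNA-GFP (limma, adjusted p = 2.13e-07), above that of 98.9% of all genes. It was 1.55 ± 0.15 in CTCF-AID without IAA (adjusted p = 5.05e-09), and 1.65 ± 0.15 with IAA (adjusted p = 1.93e-09).

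Fbxo5 pre-mRNA then came down, to 8.77 and 10.2 TPM at 120 min in CCNA-GFP and to 8.81 and 9.70 TPM without and 9.20 and 10.4 TPM with IAA in CTCF-AID cells. Asynchronous cells had 6.93, 6.13 and 7.44 TPM in CCNA-GFP and 6.67, 4.63 and 6.83 TPM in CTCF-AID without IAA, so the libraries at 120 min still lay above the asynchronous ones in both lines as deposited. Scaled to the same total, 120 min differed from asynchronous cells by −0.05 in CCNA-GFP, which did not pass, and by 0.25 without and 0.37 with IAA, which did. The difference between 120 and 60 min was −0.56 ± 0.14 on the log2 scale in CCNA-GFP (limma, adjusted p = 0.00487), −0.76 ± 0.16 without IAA (0.000323) and −0.74 ± 0.16 with IAA (0.000426). At the same total the rise at 60 min was 0.71 in CCNA-GFP, 0.70 and 0.90 in the 2 arms of CTCF-AID, and it passed the test in each. The fall between 60 and 120 min in CCNA-GFP was no longer called without replicate 1 or with each library divided by its rounding factor.

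**Figure D1:**
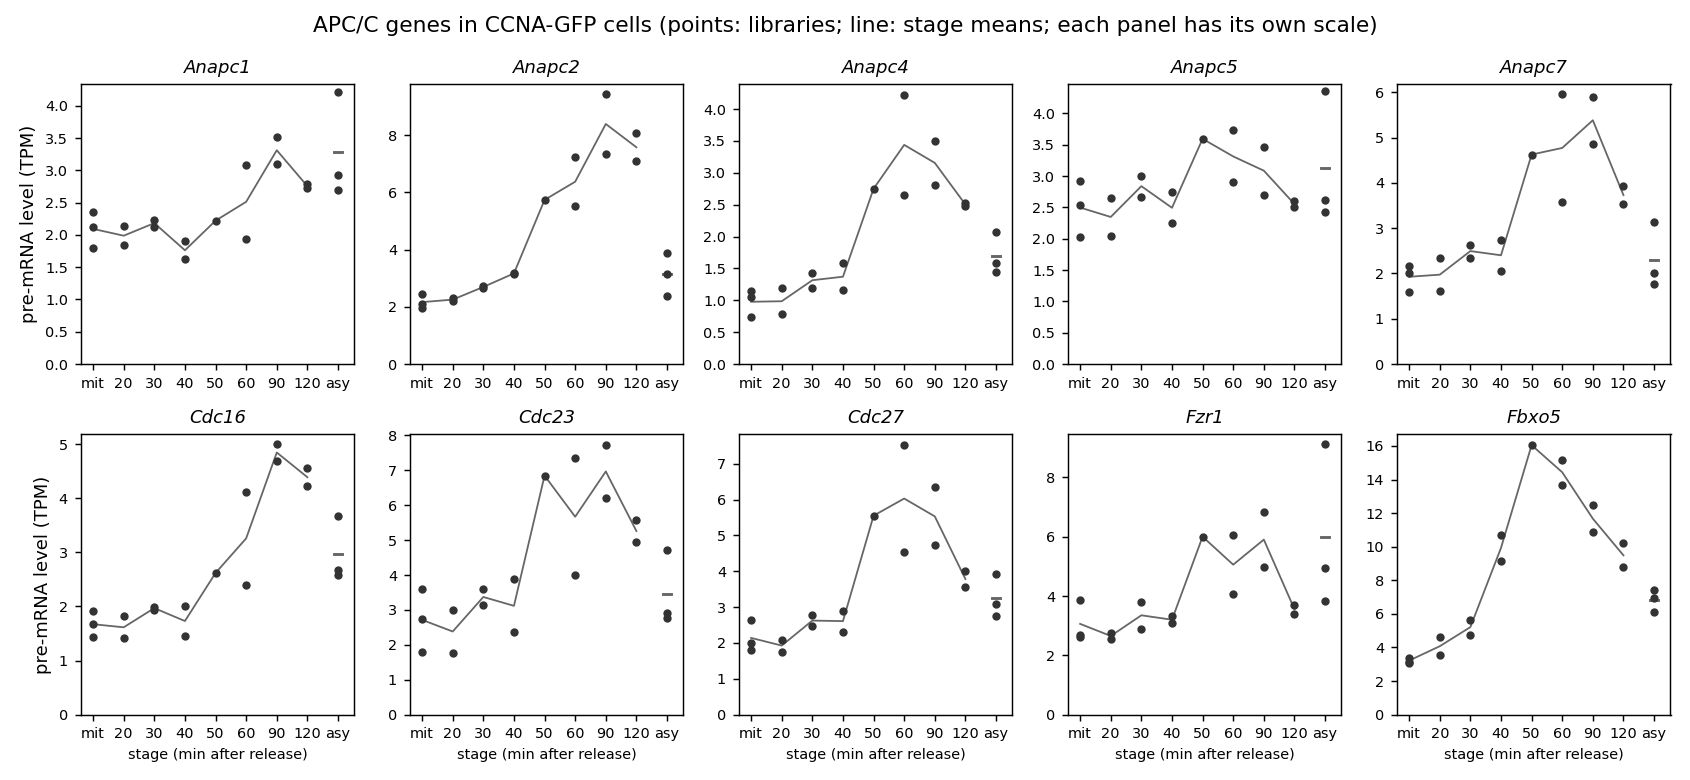
Pre-mRNA level (TPM, linear axes from 0) of the 10 APC/C genes in CCNA-GFP cells at each stage, with points for libraries, a line through the stage means and a dash for the asynchronous mean. Fbxo5 had its highest mean at 50 min, where there is 1 library, while Anapc2 had its highest at 90 min and Anapc5 stayed between 2.03 and 4.36 TPM.

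The sequences around the start are shown for the 5 genes called lower at 120 than at 60 min in both CTCF-AID arms (Fbxo5, Cdc27, Fzr1, Anapc4 and Anapc7), and for Anapc2, which was not. They are the RefSeq windows on GRCm38.p6 from 250 bases before to 50 bases after the start that RefSeq gives, in the direction of transcription, and 9 of the 10 members had one. Capitals mark matches to the CCAAT box (CCAAT, or ATTGG on the other strand) and to the cell cycle genes homology region (TTTGAA or TTCAAA, and TTCGAA). Matches of these motifs did not overlap. The windows are chr10:5805416-5805715 (− strand) for Fbxo5, chr11:104550571-104550870 (− strand) for Cdc27, chr10:81378321-81378620 (− strand) for Fzr1, chr5:52833885-52834184 (+ strand) for Anapc4, chr5:122422194-122422493 (+ strand) for Anapc7 and chr2:25272216-25272515 (+ strand) for Anapc2. The RefSeq start lies 135 bases inside the Gencode span of Fbxo5, 146 inside that of Fzr1, 123 inside that of Anapc4 and 751 inside that of Anapc7, so parts or all of these windows lie within the longer gene model.
Fbxo5: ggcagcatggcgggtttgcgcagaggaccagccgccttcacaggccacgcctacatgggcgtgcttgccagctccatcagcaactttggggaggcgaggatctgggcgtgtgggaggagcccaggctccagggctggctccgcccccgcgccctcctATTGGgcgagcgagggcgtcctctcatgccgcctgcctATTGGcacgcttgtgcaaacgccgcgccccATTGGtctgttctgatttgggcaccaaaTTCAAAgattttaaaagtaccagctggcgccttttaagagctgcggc
Cdc27: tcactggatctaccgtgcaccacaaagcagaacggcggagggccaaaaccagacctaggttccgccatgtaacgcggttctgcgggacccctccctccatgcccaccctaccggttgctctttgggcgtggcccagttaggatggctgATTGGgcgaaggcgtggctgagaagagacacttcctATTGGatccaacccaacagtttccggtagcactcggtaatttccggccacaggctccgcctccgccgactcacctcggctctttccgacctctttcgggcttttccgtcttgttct
Fzr1: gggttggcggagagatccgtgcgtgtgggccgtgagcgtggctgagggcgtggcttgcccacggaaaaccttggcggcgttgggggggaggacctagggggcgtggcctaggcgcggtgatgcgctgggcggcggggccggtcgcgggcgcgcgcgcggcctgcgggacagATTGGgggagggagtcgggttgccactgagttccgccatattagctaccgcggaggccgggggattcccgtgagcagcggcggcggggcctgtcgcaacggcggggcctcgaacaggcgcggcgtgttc
Anapc4: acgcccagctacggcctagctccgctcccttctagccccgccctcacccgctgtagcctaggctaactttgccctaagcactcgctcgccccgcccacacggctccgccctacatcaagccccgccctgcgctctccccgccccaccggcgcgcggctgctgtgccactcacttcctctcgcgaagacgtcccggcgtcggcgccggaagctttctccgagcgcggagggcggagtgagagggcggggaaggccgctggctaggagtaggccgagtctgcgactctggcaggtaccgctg
Anapc7: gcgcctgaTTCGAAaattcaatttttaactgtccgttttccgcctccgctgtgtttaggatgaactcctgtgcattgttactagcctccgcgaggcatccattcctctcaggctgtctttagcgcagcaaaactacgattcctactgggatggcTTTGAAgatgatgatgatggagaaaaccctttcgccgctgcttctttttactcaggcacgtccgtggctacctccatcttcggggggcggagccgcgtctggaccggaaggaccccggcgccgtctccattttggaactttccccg
Anapc2: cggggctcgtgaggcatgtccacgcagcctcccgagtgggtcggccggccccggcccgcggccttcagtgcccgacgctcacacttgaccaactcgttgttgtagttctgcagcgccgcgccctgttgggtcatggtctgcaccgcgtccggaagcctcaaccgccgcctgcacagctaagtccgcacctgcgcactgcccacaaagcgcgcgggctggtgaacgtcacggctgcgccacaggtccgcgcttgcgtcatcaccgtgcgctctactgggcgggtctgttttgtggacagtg

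Counting the RefSeq start as 0, the CCAAT boxes of Fbxo5 begin at −93, −55 and −25 and its TTCAAA at 3. Those of Cdc27 begin at −102 and −66, and that of Fzr1 at −79, while the windows of Anapc4 and Anapc7 hold none. Anapc5, which was not called between 60 and 120 min, also has 2, at −30 and 0, so that 4 of 9 members hold a CCAAT box against 40.1% of the promoters of listed genes. A window with at least 3 matches was found for 6.12% of these promoters. TTTGAA was also found in Anapc7, at −96, and TTCGAA at −242 of the same gene, against 11.4% and 2.26% of the promoters. The ETS site ACTTCCGG of Cdc16 begins at 2 and the YY1 site AAGATGGC of Anapc1 at 29, motifs held by 9.60% and 5.51% of the promoters. No match to TTTCCCGC or TTTGGCGC (E2F), GCATGCGC (NRF1), CACGTG (E-box) or the core of the CTCF site, on either strand, was found in any of the 9 windows, which says only that these letters are not there.

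Among the core and scaffold subunits, Anapc2 rose strongly and stayed high, Anapc4 rose, and Anapc1 and Anapc5 lagged behind most genes. The cullin-like Anapc2 had 1.95, 2.09 and 2.45 TPM in mitotic CCNA-GFP libraries, 7.23 and 5.52 TPM at 60 min, 7.35 and 9.43 TPM at 90 min and 7.08 and 8.07 TPM at 120 min, against 2.38, 3.16 and 3.89 TPM in asynchronous cells. Without IAA, CTCF-AID cells went from 2.59, 2.25 and 2.28 TPM in mitosis to 7.19 and 9.06 TPM at 120 min, with 2.62, 2.76 and 3.06 TPM in asynchronous cells. In both lines all libraries from 60 to 120 min lay above all mitotic and asynchronous ones. The log2 fold change of Anapc2 at 120 min against asynchronous cells was 1.14 ± 0.13 in CCNA-GFP (limma, adjusted p = 1.25e-06), 1.30 ± 0.11 without IAA (1.33e-09) and 1.25 ± 0.11 with IAA (3.04e-09). Relative to the median of all genes, its log2 fold change against mitosis went from 0.50 at 60 min to 0.84 at 120 min in CCNA-GFP, and from 0.73 to 1.13 in CTCF-AID without IAA.

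Anapc4, a scaffold subunit and the member with the lowest mitotic mean in each series, had 1.05, 0.731 and 1.15 TPM in mitosis and 4.22 and 2.65 TPM at 60 min in CCNA-GFP, a log2 fold change of 1.22 ± 0.12 (limma, adjusted p = 1.17e-08). In CTCF-AID its log2 fold change at 60 min was 0.97 ± 0.09 without IAA (5.67e-10) and 1.06 ± 0.09 with IAA (1.17e-10). By 120 min it had fallen by 0.39 and 0.34 from 60 min in these arms, while the difference in CCNA-GFP, −0.32, did not pass the test (limma, adjusted p = 0.057). The medians of all genes in these arms were −0.27 and −0.25, and at the same total the differences of Anapc4 were −0.08 and −0.03 and did not pass.

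Anapc1, the largest scaffold subunit, was the only member called lower at 40 min than in mitosis in CTCF-AID cells as deposited, in both arms (at the same total 5 members were called lower without and 6 with IAA). Its level was 3.54, 2.95 and 3.88 TPM in mitosis and 2.16 and 2.16 TPM at 40 min without IAA. With IAA it was 3.34, 2.89 and 3.69 TPM in mitosis and 2.18 and 1.97 TPM at 40 min. The mitotic and 40 min libraries did not overlap. The log2 fold change was −0.42 ± 0.08 without IAA (limma, adjusted p = 6.85e-05) and −0.41 ± 0.08 with IAA (9.16e-05), where 3.21% and 3.87% of all genes were called lower. At 50 min it was still lower, by 0.43 ± 0.08 and 0.39 ± 0.08, where 4.56% and 5.37% of all genes were called lower, and from 60 min on no difference from mitosis passed the test in either arm.
In CCNA-GFP, Anapc1 had 2.13, 1.79 and 2.36 TPM in mitosis and 1.90 and 1.62 TPM at 40 min, and the difference of −0.08 ± 0.12 did not pass the test (adjusted p = 0.64). There it was higher than in mitosis at 90 min (0.40 ± 0.12, adjusted p = 0.00412) and 120 min (0.37 ± 0.12, 0.00745). Relative to the median of all genes it was lower at 40 to 120 min in all 3 series, by 0.54, 0.78 and 0.80 at 60 min in CCNA-GFP, −IAA and +IAA cells, and at the same total it was called lower at 60 min in each.

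Anapc5, the last scaffold subunit of the list, also stayed below the median gene from 40 to 120 min. It had 2.54, 2.03 and 2.92 TPM in mitosis and 3.73 and 2.90 TPM at 60 min in CCNA-GFP, and 3.54, 2.95 and 3.91 TPM in mitosis against 3.80 and 3.36 TPM at 60 min in CTCF-AID without IAA. The 60 min libraries lay within the range of the mitotic ones in CTCF-AID, and 1 of 2 did so in CCNA-GFP. The difference at 60 min was 0.43 ± 0.12 in CCNA-GFP (limma, adjusted p = 0.00169), and 0.15 ± 0.09 without and 0.03 ± 0.09 with IAA, neither of which passed the test (0.127 and 0.761). Relative to the median of all genes these are −0.36, −0.48 and −0.60.

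The 4 tetratricopeptide repeat subunits all rose by 60 min as deposited (at the same total Cdc27 was higher in all 3 series and Cdc16 lower in CCNA-GFP), but differed in what followed. Cdc27, which binds the coactivators, had 1.99, 1.79 and 2.64 TPM in mitosis, 7.53 and 4.53 TPM at 60 min and 4.00 and 3.57 TPM at 120 min in CCNA-GFP. Without IAA it had 3.96, 3.78 and 5.20 TPM in mitosis, 8.85 and 11.6 TPM at 50 min, 8.57 and 8.64 TPM at 60 min and 4.88 and 4.86 TPM at 120 min. The libraries at 120 min lay below those at 60 min in both lines. The log2 difference between 120 and 60 min was −0.52 ± 0.14 (limma, adjusted p = 0.00708), −0.71 ± 0.10 without IAA (2.60e-06) and −0.77 ± 0.10 with IAA (8.05e-07), against medians of all genes of −0.11, −0.27 and −0.25. In CCNA-GFP the value ran from −0.77 to −0.28 as each replicate was left out, and the call was lost without replicate 1, without the replicate block and with each library divided by its rounding factor.

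Cdc16, another subunit of the arch, was not called lower at 120 than at 60 min in any series. It had 1.67, 1.43 and 1.91 TPM in mitosis, 4.11 and 2.40 TPM at 60 min and 4.55 and 4.22 TPM at 120 min in CCNA-GFP. In CTCF-AID without IAA it had 3.28, 3.08 and 3.78 TPM in mitosis, 6.25 and 5.58 TPM at 60 min and 5.54 and 6.65 TPM at 120 min. The difference between 120 and 60 min was 0.37 ± 0.13 in CCNA-GFP (limma, adjusted p = 0.0322), where 9.6% of all genes were called higher, and 0.04 ± 0.11 without and 0.08 ± 0.11 with IAA, which did not pass (0.798 and 0.531). The call in CCNA-GFP was lost without the replicate block, with each library divided by its rounding factor and on leaving out replicate 2 or 3, and its value ran from 0.12 to 0.62 as each replicate was left out.

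Cdc23, a further repeat subunit, and Anapc7, the outermost one, rose by 0.99 ± 0.14 and 1.07 ± 0.12 at 60 min in CCNA-GFP (limma, adjusted p = 1.15e-06 and 1.06e-07). At the same total, however, they were at −0.08 and 0.05, which did not pass. Cdc23 had 7.34 and 4.00 TPM at 60 min and 5.58 and 4.94 TPM at 120 min there, and its difference between these times was −0.05, −0.01 and −0.02 in CCNA-GFP, −IAA and +IAA cells, none of which passed the test. Anapc7 went from 4.61 and 4.07 TPM at 60 min to 2.69 and 2.49 TPM at 120 min without IAA, a difference of −0.57 ± 0.11 (adjusted p = 0.000151), and of −0.54 with IAA (0.00027). In CCNA-GFP the same difference, −0.26, did not pass (0.134). Cdc23 overlaps Kif20a on the opposite strand over 2327 bases. The libraries were stranded, but whether the quantification used the strand is not given in the sources used here, so the Cdc23 values are uncertain to that extent.

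Fzr1, the G1 coactivator, was higher at 60 min than in mitosis as deposited, but lower at the same total, and it was lower at 120 min than in asynchronous cells in all 3 series. In CCNA-GFP it had 2.61, 2.69 and 3.88 TPM in mitosis, 6.05 and 4.07 TPM at 60 min, 3.71 and 3.41 TPM at 120 min and 4.96, 3.85 and 9.13 TPM in asynchronous cells. Without IAA, CTCF-AID cells had 4.05, 3.34 and 4.81 TPM in mitosis, 5.78 and 5.55 TPM at 60 min and 2.65 and 3.27 TPM at 120 min, with 4.31, 3.65 and 7.08 TPM in asynchronous cells. The asynchronous libraries spread more widely than those of any released stage, and the 120 min libraries lay below all of them in both lines. The log2 fold change at 60 min was 0.76 ± 0.15 (limma, adjusted p = 5.95e-05) in CCNA-GFP, 0.55 ± 0.13 without IAA (0.000411) and 0.51 ± 0.13 with IAA (0.000839). All 3 are below the median of all genes, and at the same total they are −0.32, −0.27 and −0.30. At 120 min against asynchronous cells the differences were −0.36 ± 0.15 (0.0359), −0.42 ± 0.13 (0.00746) and −0.34 ± 0.13 (0.027), in limma's adjusted p, where 5.86%, 7.25% and 8.43% of all genes were called lower.

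**Figure D2:**
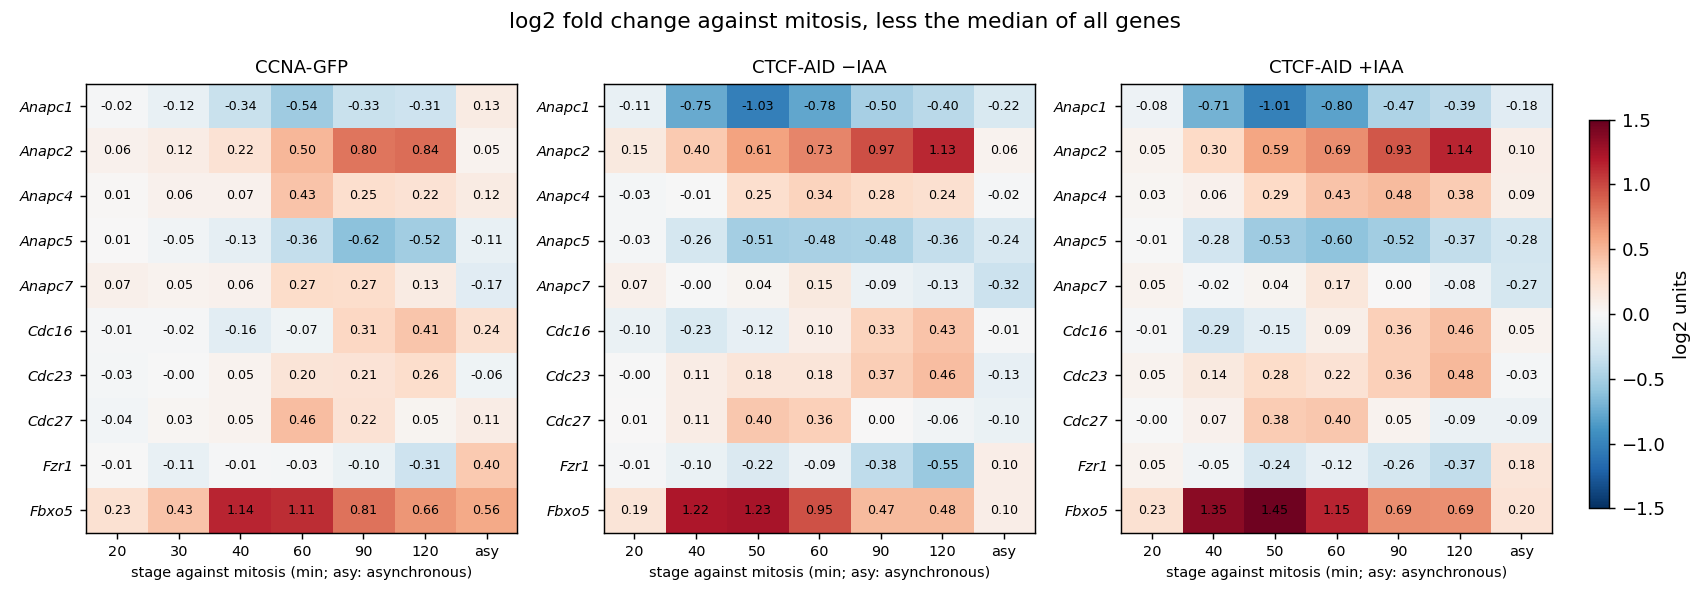
Log2 fold change (log2(TPM + 1) scale) of each APC/C gene against mitosis, less the median of all genes in the same comparison, for CCNA-GFP, CTCF-AID −IAA and CTCF-AID +IAA cells; columns are stages, and red is above and blue below the median gene. Fbxo5 stood 1.14, 1.22 and 1.35 above the median at 40 min, and Anapc1 and Anapc5 were below it at 40 to 120 min in each series.

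Counted together, none of the 10 genes passed the test at 20 min in any series or at 30 min in CCNA-GFP, where at most 1 had an unadjusted p under 0.05 in a comparison (limma). Over all genes none was called at 20 min and 0.303% were called higher at 30 min. At 40 min in CCNA-GFP 4 of 10 were called higher (Anapc2, Anapc4, Anapc7 and Fbxo5), near the 49.3% of all genes, and 9 of 10 at 60 min, all but Anapc1, against 88.3%. The count of 4 fell to 1 without replicate 1 and to 2 without replicate 2 or replicate 3, was 1 without the replicate block and rose to 7 with each library divided by its rounding factor. The 49.3% is from the fit with the block and all replicates. No share of all genes is given for these other settings. At 90 and 120 min 9 of 10 were higher, all but Anapc5, against 89.1% and 90.2%. No member was called lower than in mitosis there at any time, beside 0.0404%, 0.515%, 0.948% and 0.656% of all genes at 40, 60, 90 and 120 min. In CTCF-AID 6 of 10 were called higher at 40 min in each arm, against 63.3% of genes without and 58.7% with IAA, and 8 of 10 at 60 min, all but Anapc1 and Anapc5, against 84.8% and 82.2%. Without the replicate block the count at 40 min was 2 in each arm, again with no share of all genes given for that fit. At 50 min 8 of 10 were higher in each arm (79.1% and 78.2%), and at 120 min 6 without and 7 with IAA (69.6% and 68.2%). At 90 min 7 were higher in each (74.8% and 73.8%). None was called lower from 60 min on as deposited, where 2.7%, 3.37% and 3.15% of all genes were called lower at 60, 90 and 120 min without IAA and 4.04%, 4.41% and 4.42% with IAA. The median log2 fold change of the 10 genes at 60 min was 1.03, 0.80 and 0.83 in CCNA-GFP, −IAA and +IAA cells, beside 0.79, 0.63 and 0.63 over all genes. At the same total, 4 were called higher in each series at 60 min (Anapc2, Anapc4, Cdc27 and Fbxo5), and 4, 3 and 3 were called lower. The shares of all genes were then 36.3%, 39.4% and 40.6% higher and 33.2%, 31.1% and 33.2% lower. At the same total and 40 min, Fbxo5 alone was called higher and 3 lower in CCNA-GFP, and 2 were higher without and with IAA beside 5 and 6 lower. The shares of all genes were 23.7%, 33.3% and 33.2% higher and 31.1%, 36.7% and 38.5% lower. At 50 min 4 were on that scale higher and 4 lower in each CTCF-AID arm, beside 40.7% and 33.6% without and 40.9% and 35.5% with IAA. Likewise 4 members were higher and 3 lower at 90 and at 120 min in CCNA-GFP, beside 31.8% and 28.7% of all genes higher and 26.1% and 23.4% lower. Without IAA 5 were higher at both times (34.5% and 32.0%) and 4 and 5 lower (25.6% and 25.9%). With IAA 5 were higher (36.7% and 33.5%) and 3 and 5 lower (27.4% and 28.7%).

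**Figure D3:**
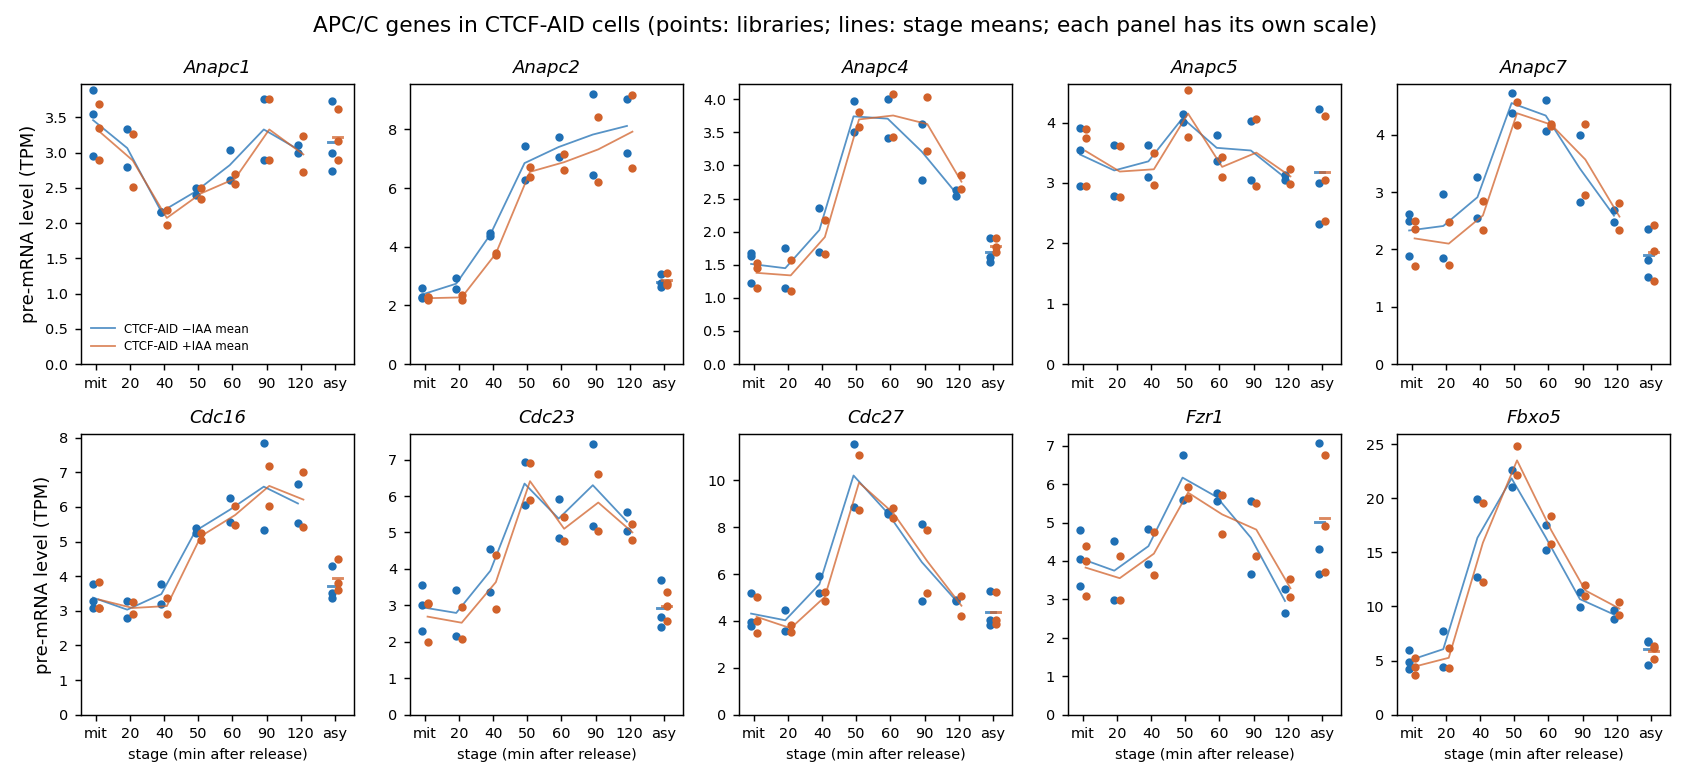
Pre-mRNA level (TPM, linear axes from 0) of the 10 APC/C genes in CTCF-AID cells without (blue) and with (orange) IAA, with points for libraries, lines through the stage means and dashes for the asynchronous means. Fbxo5 has its highest mean at 50 min in both arms, and Anapc1 its lowest at 40 min. Each arm has 2 libraries at each time after release.

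Between 60 and 120 min, as deposited, the numbers of members called were near the shares of all genes. In CTCF-AID cells 5 of 10 were called lower in each arm (Anapc4, Anapc7, Cdc27, Fzr1 and Fbxo5), against 53.1% of all genes without and 50.8% with IAA, and none was called higher (7.31% and 7.61%). In CCNA-GFP 2 of 10 were called lower (Cdc27 and Fbxo5), against 28.5%, and Cdc16 alone was called higher (9.6%). Without replicate 1 none was called lower in CCNA-GFP, and without replicate 2 there were 5. Without replicate 1 the +IAA arm had 3 lower and 3 higher. The shares of all genes are from fits with all replicates, and none is given for these counts. At the same total, Anapc7, Cdc27, Fzr1 and Fbxo5 were called lower in both arms of CTCF-AID, and Anapc1, Anapc2, Cdc16 and Cdc23 higher, with Anapc5 also higher in the +IAA arm, where 26.5% of all genes were lower and 25.6% higher without IAA, and 27.2% and 26.6% with IAA. In CCNA-GFP 2 members were then lower and 3 higher, beside 21.7% and 24.2%. At 60 min 6, 9 and 7 of 10 were higher than in asynchronous cells in CCNA-GFP, −IAA and +IAA cells, beside 67.0%, 75.2% and 72.2% of all genes, and none was lower (8.6%, 7.06% and 8.24%), whereas at the same total 4, 3 and 3 were, near the 35.2%, 32.9% and 33.9% of all genes. The higher counts at the same total were 5, 6 and 5, beside 35%, 37.5% and 36.9% of all genes. Against asynchronous cells, 6 of 10 were higher and Fzr1 lower at 120 min in CCNA-GFP (63.4% of all genes higher), 7 higher and Fzr1 lower without IAA (51.0%), and 6 higher and Fzr1 lower with IAA (47.2%). In CCNA-GFP the higher count was 3 at the same total (26.7% of all genes), without the replicate block and with the rounding factor divided out, and without IAA it was 4 in the last of these and without the block. At the same total the higher count was 6 in each CTCF-AID arm, beside 26.9% of all genes without and 26.2% with IAA. No share of all genes is given without the block or with the rounding factor divided out. Libraries at the same total gave 3 lower members in every series, beside 25%, 27.7% and 29.2% of all genes.

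**Figure D4:**
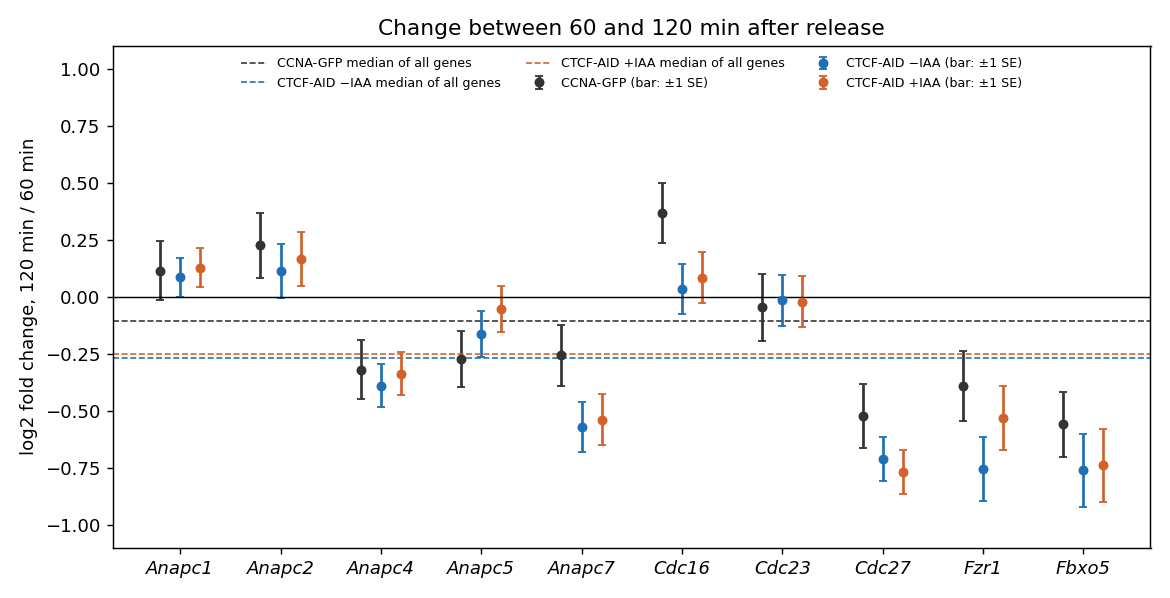
Log2 fold change (log2(TPM + 1) scale) between 120 and 60 min after release for each APC/C gene; points are fitted values in CCNA-GFP (black), CTCF-AID −IAA (blue) and +IAA (orange), bars are ±1 SE and dashed lines the medians of all genes. In each series Anapc4, Anapc7, Cdc27, Fzr1 and Fbxo5 lie below the median of that series and Anapc1, Anapc2, Cdc16 and Cdc23 above it.

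Asynchronous cells were also compared with mitotic ones, a contrast whose counts depended on scaling. In CCNA-GFP 7 of 10 genes were higher in asynchronous than in mitotic cells, all but Anapc5, Anapc7 and Cdc23, against 70.4% of all genes, led by Fbxo5 with 0.89 ± 0.12 (limma, adjusted p = 6.70e-06) and Fzr1 with 0.72 ± 0.13 (8.29e-05). In CTCF-AID without IAA none passed the test, against 34.3% of genes called higher, while with IAA 4 were higher (Anapc2, Anapc4, Fzr1 and Fbxo5), against 40.9%. Without IAA 1 member, Anapc7, had an unadjusted p under 0.05 (limma), with a log2 difference of −0.20. Of 10237 genes 4939 had such a p in that comparison. None was called lower than in mitosis, beside 1.97%, 5.25% and 5.89% of all genes in CCNA-GFP, −IAA and +IAA cells, whereas at the same total 3, 5 and 4 were, beside 20.2%, 21.4% and 22.4%. On the same scale 2, 0 and 1 members were higher, beside 24.7%, 27.2% and 29.7%, and Fzr1 in CCNA-GFP was at 0.24 and lost its call. The count of 4 with IAA was 2 without replicate 2 and 0 without replicate 3 or without the replicate block, and the count without IAA was 1 without replicate 1. No share of all genes is given for these fits. With each library divided by its rounding factor, 9 were higher in CCNA-GFP and 7 in each CTCF-AID arm, and no difference between the lines was tested. The share of all genes with that factor divided out is not given, so these counts are not set against all genes. Mitotic levels of all 10 genes were higher in CTCF-AID without IAA than in CCNA-GFP cells by their means, from 0.976 and 1.51 TPM for Anapc4 to 3.22 and 5.01 TPM for Fbxo5. Of 9574 genes that both lines list, 82.2% were higher by their means, and the listed TPM of a mitotic library summed to 18606 to 23302 in CTCF-AID without IAA and to 13747 to 17245 in CCNA-GFP. The lines were tabulated separately, so this was not tested.

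Depletion of CTCF left no called change in any of the 10 genes. Over 10 genes and 8 stages, the 80 differences between +IAA and −IAA ran from −0.19 to 0.14 on the log2 scale. None of them had an unadjusted p under 0.05 in limma, and the adjusted p was 1.00 throughout. Over all genes, the share called at a single stage was at most 0.694% lower and 0.313% higher, both in asynchronous cells. In mitosis and at 20 and 40 min 0 of 10237 genes were called, so the test could not single out a member at these stages. None of the members was called in asynchronous cells or at 2 or more post-mitotic times. These are the study's criteria, put here on limma fits of log2(TPM + 1) rather than on its count model, and they held 0.762% of genes lower and 0.342% higher. With that count model the paper reports genes that responded to the depletion soon after mitosis. Confidence intervals (95%) for the members reached from −0.63 to 0.62 at their widest. With the replicate number as a block they reached from −0.48 to 0.43, and again none of the 80 had an unadjusted p under 0.05. By pairs of same-numbered libraries, 6 of 10 members were lower with IAA in 3 of 3 pairs in mitosis, beside 19.9% of all genes. At 20, 40, 50, 60, 90 and 120 min 8, 9, 3, 6, 2 and 0 were lower in 2 of 2 pairs, beside 57.6%, 53.2%, 28.1%, 38.3%, 31.1% and 23.0%. In asynchronous cells 0 were lower in 3 of 3 pairs, beside 13.1%. Members higher with IAA in every pair numbered 0 in mitosis and at 20 and 40 min, beside 4.61%, 5.71% and 10.2% of all genes. They numbered 1, 2, 3 and 3 at 50, 60, 90 and 120 min and 1 in asynchronous cells, beside 28.9%, 21.6%, 25.3%, 19.01% and 21.0% of all genes at these last 5 stages.
The lowest value belonged to Anapc2 at 20 min, with 2.93 and 2.55 TPM without and 2.34 and 2.20 TPM with IAA, a difference of −0.19 ± 0.15 (95% interval −0.50 to 0.12). At 40 min Anapc2 had 4.47 and 4.37 TPM without and 3.73 and 3.80 TPM with IAA, and both pairs were again lower with IAA. The rise from mitosis, compared between the arms as an interaction, passed the test for none of the members, with values from −0.14 to 0.24 over 70 tests and no unadjusted p under 0.05. Over all 10237 genes 0 passed at 20, 40, 50 and 60 min. At 90 and 120 min and in asynchronous cells 0 were higher and at most 0.0586% lower. Among the members Fbxo5 at 50 min had the largest interaction, 0.24 ± 0.30 (95% interval −0.38 to 0.87), with 22.6 and 21.1 TPM without and 24.9 and 22.2 TPM with IAA. The interaction was fitted here without the replicate block, and its interval with the block is not given. Ctcf pre-mRNA itself had 5.74, 6.15 and 6.78 TPM in mitotic libraries without and 6.41, 6.10 and 7.18 TPM with IAA. IAA removes the protein and not the RNA, so this level does not check the arms.

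Gene length moved with the change at 40 min, over all genes and over the members. In CCNA-GFP the median log2 fold change was 0.49 in genes under 10 kb, 0.26 in those of 20 to 40 kb and 0.06 in those over 80 kb. Fbxo5, at 6.44 kb the shortest member, stood above its length class and Anapc1, at 77.3 kb the longest, below the median of 0.17 of genes of 40 to 80 kb. In CTCF-AID without IAA the length class of Anapc1 had a median of 0.17, with 5.99% of its genes called lower. Over the 10 members Spearman's rho of length and log2 fold change was −0.62, −0.59 and −0.60 in CCNA-GFP, −IAA and +IAA cells. This is a description over 10 genes measured in the same libraries. The part of length in the members' differences was not tested.

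**Figure D5:**
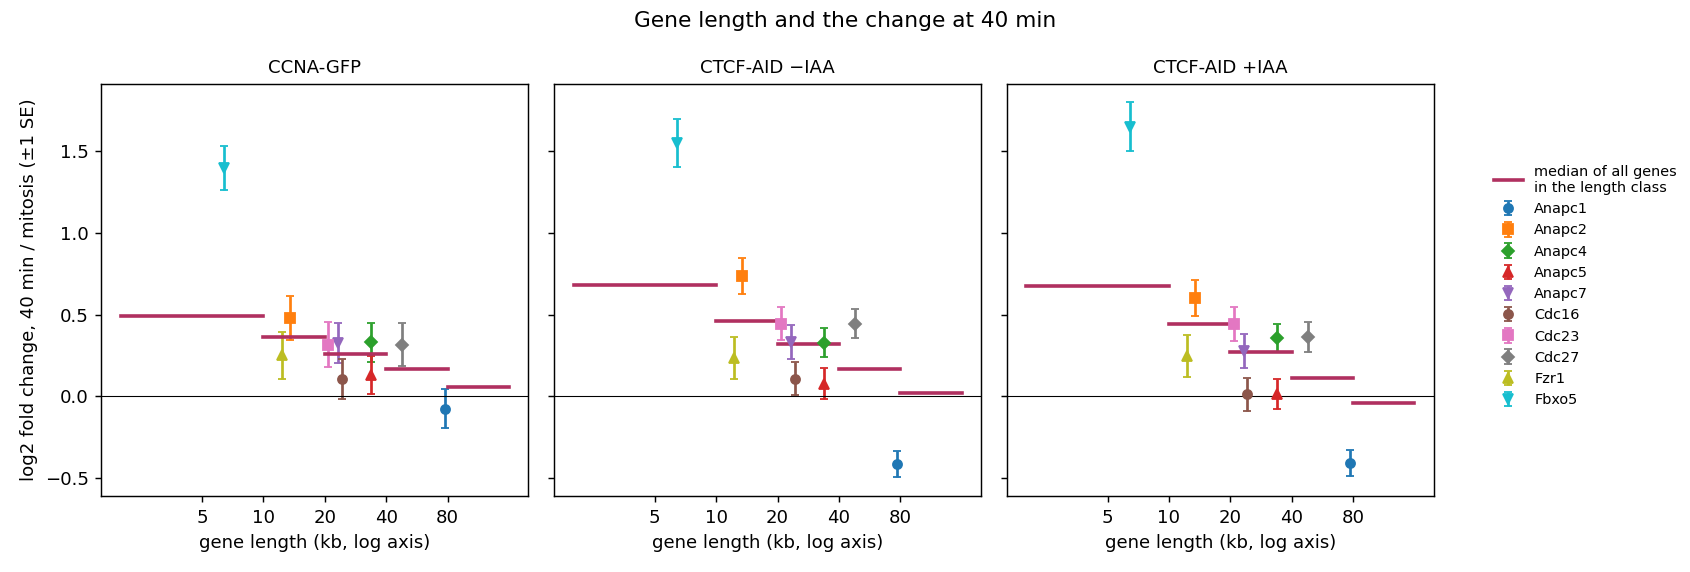
Log2 fold change at 40 min against mitosis (log2(TPM + 1) scale, bars ±1 SE) against gene length in kb on a log axis for the 10 APC/C genes, in CCNA-GFP, −IAA and +IAA cells. Horizontal lines are medians of all genes under 10 kb, of 10 to 20, 20 to 40 and 40 to 80 kb and over 80 kb, the outer classes drawn with arbitrary ends; Fbxo5 lies above its class and Anapc1 below its class in each panel.

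The other genes of the pathway were counted by function, on values as deposited only. They were not counted at the same total, where the median of all genes at 60 min in CCNA-GFP was 0.02. Whether their directions hold on that scale is not given. Of the 6 remaining subunits 5 were listed, and all 5 were higher at 60 min in each series, with a median of 0.91 in CCNA-GFP beside 0.79 over all genes, of which 88.3%, 84.8% and 82.2% were higher in CCNA-GFP, −IAA and +IAA cells. Anapc16 had the largest change there (1.30 ± 0.11), followed by Anapc10 (1.04 ± 0.15), a subunit that helps to bind substrates, and Cdc26, which steadies Cdc16, had the smallest (0.82 ± 0.11). Of the coactivator Cdc20 and 4 ubiquitin-conjugating enzymes all 5 were higher at 60 min in CCNA-GFP, and 4 were lower at 120 than at 60 min in each series, as were 28.5%, 53.1% and 50.8% of all genes. Ube2c, which starts ubiquitin chains for the APC/C, had a log2 fold change of 1.73 ± 0.15 when 60 min was set against mitosis, and of −0.98 ± 0.16 when 120 min was set against 60 min. Ube2d3 had 1.43 ± 0.13 and Ube2d1 0.46 ± 0.09 at 60 min.
Of 12 mitotic checkpoint genes and other inhibitors 11 were higher at 60 min in CCNA-GFP, close to the 88.3% of all genes. Mad2l1, a checkpoint inhibitor of the APC/C, was at 1.39 ± 0.13, Usp37, a deubiquitinase that stabilises cyclin A, at 1.25 ± 0.13, and Mad1l1, the partner of Mad2l1 at kinetochores, at −0.11 ± 0.11, which did not pass the test. In CTCF-AID without IAA Mad1l1 was lower at 60 min, by 0.30 ± 0.10 (limma, adjusted p = 0.00489). Of 23 listed genes whose proteins are degraded through the APC/C, 22 were higher at 60 min in CCNA-GFP, with a median of 1.20, beside 88.3% and 0.79 over all genes, and 15 were lower at 120 than at 60 min, beside 28.5%. In CTCF-AID 18 without and 19 with IAA were lower at 120 than at 60 min, beside 53.1% and 50.8%. Cdc25a, a phosphatase that activates CDKs, had 1.85 ± 0.14 and Cdc6, which loads the replicative helicase, 1.82 ± 0.14, whereas Ccnb2, a mitotic cyclin, had 0.21 ± 0.11 and did not pass. No gene of these lists was responsive to IAA, beside 0.762% of all genes lower and 0.342% higher.

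The profiles were also compared over the 25 stage means of the 3 series, each line centred on its own mean. The mean profile of the 8 subunits was most like Tgs1 (Pearson's r = 0.994), Ncoa5 (0.993) and Mrpl13 (0.992). Among the subunits themselves, r with that mean, which contains them, was lowest for Anapc1 (0.22) and Anapc5 (0.63) and highest for Anapc4 (0.99). Fzr1 was most like Prr5 (0.951), Dag1 (0.947) and Kif4 (0.943), and among members like Anapc5 (0.81) and Cdc27 (0.79). Fbxo5 was most like Ddx5 (0.990), Nxt1 (0.990) and Pdcd7 (0.988), and had r = −0.31 with Anapc1. The named genes outside the members are the 3 with the highest r among all other genes listed in both lines. A typical r over all genes is not given, so these values do not show a likeness particular to the named genes. They describe shared stage means of the same libraries and carry no test.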

How the data were processed

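Pre-mRNA was measured by ribosome-depleted, stranded, paired-end RNA-seq in 55 libraries. The authors aligned reads with STAR to mm10 and estimated TPM with RSEM on Gencode vM12 to which a pre-mRNA isoform per gene was added, and kept genes with TPM over 0.5 in asynchronous or at least 2 post-mitotic samples. Replicates are described as biologically independent. The deposited TPM of each line form a table of their own, so levels were not tested between lines, and read counts were not used here. The members and lists were chosen with earlier results of these data known.

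Values were analysed as log2(TPM + 1), where 1 is the pseudocount, with limma 3.58.1 in R 4.3.3 (moderated test with a trend, Benjamini-Hochberg adjustment over all genes of a comparison), and fold changes on this scale understate those of low genes. Stages were compared with the replicate number as a block, at an adjusted p under 0.05. The +IAA and −IAA arms were compared without it, at an adjusted p under 0.1 and an absolute log2 change over 0.2, and the interaction with the rise at an adjusted p under 0.1. Same-numbered libraries deviated together, with r from 0.130 to 0.802 in 41 of 41 pairs of CCNA-GFP and from 0.110 to 0.884 in 182 of 182 pairs of CTCF-AID, so the numbers were taken to pair libraries. Where both groups hold 2 libraries, both replicates give the same r, so these pairs are not separate values. No call was made at 50 min in CCNA-GFP, which has 1 library.

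Named genes were all members, in each list the 2 genes with the highest and the 1 with the lowest change at 60 min in CCNA-GFP, any gene of a list responsive to IAA, the 3 other genes with the highest Pearson r to the mean of the 8 subunits, to Fzr1 and to Fbxo5 over stage means of log2(TPM + 1), each table centred on its own mean, and Ctcf. Alternatives were a pseudocount of 0.1, a filter at a mean of 1 TPM, scaling to the same total, division by a rounding factor (each library's values are whole multiples of its own step, and the factor, of unstated origin, brings them back to values of 2 decimals), no block or a block, and leaving out each replicate.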

Additional observations from a re-analysis of the deposited data

Results flagged for a closer look

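In 5 comparisons every CCNA-GFP library moved one way from the mitotic library of the same replicate number and every CTCF-AID library without IAA moved the other way, and in each the difference was not tested, since the lines were tabulated separately. For Anapc1 the mean log2 changes in CCNA-GFP and CTCF-AID cells were 0.014 and −0.06 at 20 min, 0.23 and −0.15 at 60 min, 0.41 and −0.13 at 90 min and 0.46 and −0.10 in asynchronous cells. For Fzr1 they were 0.32 and −0.25 at 120 min. With every library scaled to the same total, both lines lay below mitosis in 4 of these by the fitted values, which were −0.06 and −0.14, −0.67 and −0.89, and −0.46 and −0.59 for Anapc1 at 20, 60 and 90 min and −0.52 and −0.68 for Fzr1. For asynchronous Anapc1 they were 0.021 and −0.26. The groups hold 2 libraries each, or 3 for asynchronous cells.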

How the results depend on the processing

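At 40 and 60 min against mitosis and between 60 and 120 min, the direction of a member's difference was reversed by scaling to the same total more than by any other choice. At the same total it reversed in CCNA-GFP at 40 min against mitosis for Anapc4 (−0.0050), Anapc5 (−0.32), Anapc7 (−0.10), Cdc16 (−0.30), Cdc23 (−0.14), Cdc27 (−0.12), Fzr1 (−0.23), in CCNA-GFP at 60 min against mitosis for Anapc1 (−0.67), Anapc5 (−0.56), Cdc16 (−0.22), Cdc23 (−0.078), Fzr1 (−0.32), in CCNA-GFP between 60 and 120 min for Cdc23 (0.11), in CTCF-AID −IAA at 40 min against mitosis for Anapc4 (−0.083), Anapc5 (−0.43), Anapc7 (−0.13), Cdc16 (−0.40), Cdc23 (−0.049), Cdc27 (−0.088), Fzr1 (−0.29), in CTCF-AID −IAA at 60 min against mitosis for Anapc5 (−0.61), Cdc16 (−0.072), Fzr1 (−0.27), in CTCF-AID −IAA between 60 and 120 min for Anapc5 (0.14), Cdc23 (0.32), in CTCF-AID +IAA at 40 min against mitosis for Anapc4 (−0.021), Anapc5 (−0.46), Anapc7 (−0.15), Cdc16 (−0.47), Cdc23 (−0.016), Cdc27 (−0.14), Fzr1 (−0.24), in CTCF-AID +IAA at 60 min against mitosis for Anapc5 (−0.74), Cdc16 (−0.088), Fzr1 (−0.30), in CTCF-AID +IAA between 60 and 120 min for Anapc5 (0.24), Cdc23 (0.30). With the rounding factor divided out it reversed in CCNA-GFP at 40 min against mitosis for Anapc1 (0.058), in CCNA-GFP between 60 and 120 min for Cdc23 (0.030), in CTCF-AID −IAA between 60 and 120 min for Cdc16 (−0.051), in CTCF-AID +IAA at 60 min against mitosis for Anapc5 (−0.015). Without the replicate block it reversed in CTCF-AID −IAA at 40 min against mitosis for Anapc5 (−0.034), in CTCF-AID +IAA at 40 min against mitosis for Anapc5 (−0.10), Cdc16 (−0.063), in CTCF-AID +IAA at 60 min against mitosis for Anapc5 (−0.081). Leaving out a replicate reversed Anapc1 in CCNA-GFP between 60 and 120 min (−0.11 to 0.34), Anapc2 in CCNA-GFP between 60 and 120 min (−0.026 to 0.48), Anapc5 in CTCF-AID +IAA between 60 and 120 min (−0.15 to 0.044), Anapc5 in CTCF-AID +IAA at 40 min against mitosis (−0.037 to 0.085), Anapc5 in CTCF-AID +IAA at 60 min against mitosis (−0.021 to 0.14), Cdc16 in CTCF-AID +IAA between 60 and 120 min (−0.13 to 0.30), Cdc16 in CTCF-AID +IAA at 40 min against mitosis (−0.073 to 0.088), Cdc16 in CTCF-AID −IAA between 60 and 120 min (−0.15 to 0.22), Cdc23 in CCNA-GFP between 60 and 120 min (−0.34 to 0.25), Cdc23 in CTCF-AID +IAA between 60 and 120 min (−0.15 to 0.11), Cdc23 in CTCF-AID −IAA between 60 and 120 min (−0.074 to 0.045). In the other stage comparisons, which were refitted for direction at the same total, 0 to 7 of 10 members turned. Called both ways were Anapc1 and Fzr1 at 90 and 120 min in CCNA-GFP, from 0.40 and 0.37 to −0.46 and −0.45 for Anapc1 and from 0.63 and 0.37 to −0.33 and −0.52 for Fzr1. In CTCF-AID these were Cdc16 and Fzr1 at 50 min in both arms, Anapc7 at 90 min without and at 120 min with IAA, Cdc27 at 120 min in both arms, and Anapc5 and Fzr1 at 60 min against asynchronous cells without IAA. The cause of these reversals was not tested.

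Counts of members called moved as follows. Except at the same total, no share of all genes is given for these settings, so the counts are not set against all genes. At the same total, higher calls in CCNA-GFP were 1 at 40 min, 4 at 60, 90 and 120 min and 2 in asynchronous cells (24.7% of all genes), with 3 lower at 40 min. Between 60 and 120 min 3 were higher (24.2%), and 3 were higher at 120 min than in asynchronous cells (26.7%). In the −IAA and +IAA arms at the same total, 2 and 2 were higher at 40 min, 4 and 4 at 60 min, 5 and 6 lower at 40 min and 4 and 5 higher between 60 and 120 min, and 1 was higher in asynchronous +IAA cells (29.7%). Without the replicate block, 1 was higher at 40 min in CCNA-GFP, 2 in each CTCF-AID arm and 0 in asynchronous +IAA cells. Between 60 and 120 min 1 was lower and 0 higher in CCNA-GFP, and 3 were lower with IAA. At 120 min against asynchronous cells 3 were higher in CCNA-GFP and 4 without IAA. With the rounding factor divided out, 7 were higher at 40 min in CCNA-GFP and 7 in asynchronous cells of each CTCF-AID arm, 0 were higher and 0 lower between 60 and 120 min in CCNA-GFP, and 3 and 4 were higher at 120 min than in asynchronous cells in CCNA-GFP and −IAA. A filter at a mean of 1 TPM gave 4 lower between 60 and 120 min in CCNA-GFP. Leaving out a replicate gave 1 to 2 higher at 40 min and, between 60 and 120 min, 0 to 1 higher and 0 to 5 lower in CCNA-GFP. It gave 0 to 3 higher and 3 to 5 lower between 60 and 120 min with IAA, and in asynchronous cells 0 to 5 higher with and 0 to 1 without IAA. No member was called for IAA under any setting run, the replicate block included. Read depth is unknown, and groups of 2 or 3 libraries limit every comparison.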
